A study of Mus musculus with 8 samples.

Results

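The chemokine ligands are the 37 of 23420 gene symbols in the count tables that start with Ccl, Cxcl or Cx3cl followed by a number and at most 1 lower-case letter. They were read in 8 RNA sequencing libraries of mouse uterine stromal cells, all labelled day 3, of which 4 are labelled Erbb3f/f and 4 Erbb3d/d. By convention, f stands for a floxed Erbb3 allele that Cre can recombine and d for the recombined, deleted one. The labels name no Cre driver, give no event from which day 3 is counted and do not tie a library to an animal, so p-values measure only the spread between these libraries. The study's title places stromal Erbb3, a receptor tyrosine kinase, in the shaping of uterine glands. Of the 37 ligands, 30 had at least 1 read in some library, 23 passed the filter on low counts and entered the genotype test, and 24 had a mean of at least 1 CPM. Symbols of the same protein family that the naming rule does not catch (Pf4, Ppbp, Xcl1) are given with the related genes.

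Chemokines are small secreted proteins that guide migrating cells by binding G protein-coupled receptors. They are named for the spacing of their first cysteines, adjacent in the CC class, split by a single residue in the CXC class and more widely spaced in CX3CL1, which is made as a membrane-anchored protein. Some are made steadily by resident cells, others mainly on inflammatory or interferon signals. In the uterus they are known for recruiting neutrophils, eosinophils, macrophages and natural killer cells during the cycle and early pregnancy.

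Reads assigned to genes ranged from 8578575 to 12854367 per library, and those of the 37 ligands together from 11177 to 26273. Erbb3 itself had 7.40 to 12.3 CPM in the libraries labelled Erbb3f/f and 7.37 to 17.7 CPM in those labelled Erbb3d/d, with a log2 fold change of 0.53 (SE 0.28). It was thus not lower under the d/d label. A count over the whole gene cannot show the loss of single exons, so this value does not check the labels, and directions follow them. Stromal markers were abundant (Dcn lay above 99.1% of tested genes in reads per kb, Pdgfra above 96.8%), but the libraries were not of stroma alone. Summed over each marker list, stroma (14 genes) ran from 14440 to 18207 CPM for Erbb3f/f and 12188 to 16543 CPM for Erbb3d/d, epithelium (20) from 1336 to 2232 and 2101 to 3632 CPM, and smooth muscle (12) from 2265 to 3548 and 3407 to 6850 CPM. Endothelium (14) ran from 336 to 653 and 367 to 705 CPM, and lymphatic endothelium (6) from 90.9 to 200.2 and 111 to 438 CPM. Immune cells (17) ran from 1580 to 3359 and 2072 to 2546 CPM, and mesothelium (5) from 288 to 417 and 271 to 370.5 CPM. At an unadjusted p under 0.05 in edgeR's test, 14 of the 20 epithelial and 10 of the 12 smooth muscle markers were higher for Erbb3d/d and 5 of the 14 stromal markers were lower, with 0 called, where 6.64% of all tested genes were higher and 4.97% lower. DESeq2 called 5 epithelial and 2 smooth muscle markers higher and 2 stromal markers lower, against 1.39% and 0.404% of all tested genes. No marker of these 7 lists was at 0 in all libraries. Single genes led some sums, so a sum does not measure the share of a cell type. In the mesothelium list Wt1 averaged 267 CPM over the 8 libraries, against 34.6 for Upk3b, 21.8 for Lrrn4, 11.0 for Krt5 and 5.89 for Msln. Lyz2 (1085 CPM) and Cd74 (594 CPM) led the immune sum, and Mylk (835 CPM) the smooth muscle sum. A bulk count cannot tell fewer cells of a type from less RNA per cell, nor assign a ligand to a cell type.

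By abundance the ligands were dominated by Cxcl14. It took 52.6% ± 8.33 (SD, n = 8) of all ligand reads, and Cxcl12 took 15.4% ± 5.85 (SD, n = 8). Together they made up 60.4% to 76.2% of the ligand reads of a library. Reads depend on transcript length, so levels were compared between genes per kb of merged exons. On that scale Cxcl14 was first in each of the 8 libraries, at 4.56 to 16.3 times the next ligand of the same library, and lay above 99.8% of the tested genes. Ccl6 came next at 52.6 CPM per kb on average, then Cxcl2 at 41.3, Ccl3 at 34.6, Cxcl12 at 30.6 and Cxcl16 at 30.0 CPM per kb. The last 4 cannot be ordered, since Cxcl2 exceeded Ccl3 in 4 of 8 libraries and Cxcl12 exceeded Cxcl16 in 4 of 8. The position of Cxcl12 depended on the length used. It ranked 5 with 8176 bases of merged exons and 3 with the 5627 bases of its longest transcript.

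**Figure D1:**
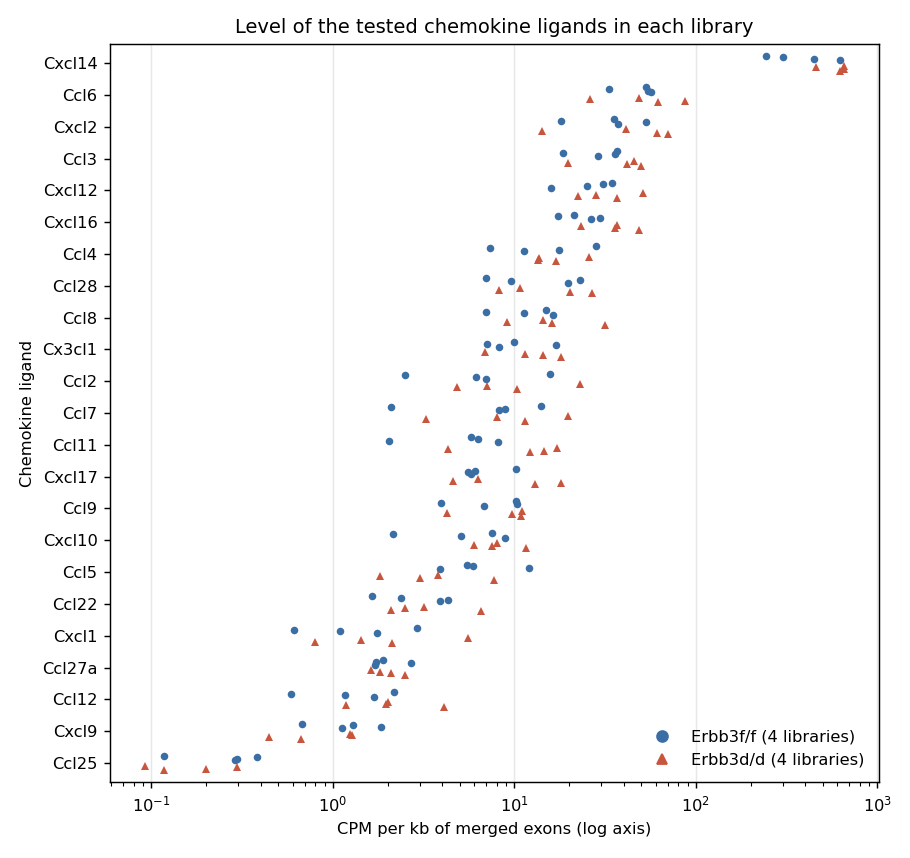
Level of the 23 tested chemokine ligands (rows) in CPM per kb of merged exons on a log axis, 1 point per library, circles for the 4 libraries labelled Erbb3f/f and triangles for the 4 labelled Erbb3d/d. Cxcl14 lies apart from all other ligands at 242 to 653 CPM per kb, while neighbouring ligands below it overlap.

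Cxcl14 and Cxcl12 belong to the ligands that resident cells make steadily. Cxcl12, which signals through Cxcr4 and is also bound by the scavenging receptor Ackr3, lies on chromosome 6 at 117168535 to 117181367 (plus strand, GRCm38). Cxcl14, a conserved ligand of epithelia and stroma, lies on chromosome 13 at 56288643 to 56296551 (minus strand). The 250 bases before the start site of each are shown because these 2 genes carry most of the ligand reads. Capitals mark a match on either strand to the core of the interferon-stimulated response element (ISRE), searched as GAAA, any 2 bases and GAAA. The windows are chr13:56296552-56296801 (minus strand) for Cxcl14 and chr6:117168285-117168534 (plus strand) for Cxcl12, written 5′ to 3′ along the gene, from RefSeq on GRCm38.p6.
Cxcl14: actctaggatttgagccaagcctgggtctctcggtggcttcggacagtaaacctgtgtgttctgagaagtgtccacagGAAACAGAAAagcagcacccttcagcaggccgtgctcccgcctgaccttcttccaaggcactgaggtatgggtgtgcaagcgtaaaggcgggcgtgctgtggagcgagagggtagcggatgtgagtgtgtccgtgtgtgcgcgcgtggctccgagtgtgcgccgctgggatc
Cxcl12: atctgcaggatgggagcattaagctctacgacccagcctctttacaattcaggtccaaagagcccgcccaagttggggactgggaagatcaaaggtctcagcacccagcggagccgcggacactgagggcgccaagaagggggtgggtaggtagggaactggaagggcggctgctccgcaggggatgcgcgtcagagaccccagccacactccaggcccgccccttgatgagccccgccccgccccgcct
The Cxcl14 window holds 1 ISRE match, GAAACAGAAA, at 172 to 163 bases before the start. The Cxcl12 window holds none, and neither holds a match to the κB motif or to TATAAA. Of 32851 promoter windows of this length, 2.98% hold an ISRE match, 3.90% a κB match and 12.4% TATAAA.

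Cxcl14 had 443, 549, 812 and 1136 CPM for Erbb3f/f replicates 1 to 4 and 1194, 836, 1189 and 1131 CPM for Erbb3d/d replicates 1 to 4. The f/f libraries spread over more than the range of the d/d libraries, and Erbb3f/f replicate 4 lay among the d/d values. The mean was 735 ± 309 CPM (SD, n = 4) for Erbb3f/f and 1087 ± 170 CPM (SD, n = 4) for Erbb3d/d. Its log2 fold change of 0.56 (SE 0.27, 95% interval -0.04 to 1.17) was not called (adjusted p = 0.463, edgeR quasi-likelihood). Replicate 4 was the only f/f library among the d/d values, so leaving it out removes the overlap by choice. Without it 4.79% of tested genes were higher without overlap, but that share is not for libraries picked by a gene's own values. The edgeR adjusted p of Cxcl14 was then 0.241.

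Cxcl12 had 284, 253, 205 and 131 CPM for Erbb3f/f replicates 1 to 4 and 419, 230.02, 182.8 and 298.997 CPM for Erbb3d/d replicates 1 to 4. The groups overlapped broadly, with the lowest library an f/f and the highest a d/d. Its log2 fold change was 0.37 (SE 0.29, 95% interval -0.29 to 1.03; edgeR adjusted p = 0.654). Erbb3d/d replicate 1, the highest in Cxcl12, also had the highest mean log2 CPM of the smooth muscle markers, 8.49 against 6.48 to 7.95 in the other 7 libraries. With the smooth muscle mean as covariate the log2 difference of Cxcl12 was -0.34 (SE 0.26), with the epithelial mean 0.70 (SE 0.42). These means themselves differed between the labels. The smooth muscle mean was 7.04 ± 0.46 for Erbb3f/f and 7.85 ± 0.49 for Erbb3d/d (SD, n = 4 each). The epithelial mean was 5.87 ± 0.30 and 6.54 ± 0.48. Fits with either covariate, here and below, therefore cannot tell the label from the marker level.

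Cxcl16, a membrane-anchored ligand that sheds into a soluble form and binds Cxcr6, had the smallest p-value of the ligands. It lies on chromosome 11 at 70453983 to 70459984. Its 4 values were 64.3, 52.8, 89.9 and 80.2 CPM for Erbb3f/f and 110.5, 70.7, 108 and 148 CPM for Erbb3d/d. Replicates 1, 3 and 4 of the d/d libraries lay above all f/f libraries, and replicate 2 lay inside their range. It differed by 0.61 on the log2 scale (SE 0.23), with an unadjusted p of 0.0248 and 0.365 after edgeR's adjustment. Fits with marker means gave other values. With the epithelial mean as covariate, under the limit stated for Cxcl12, the log2 difference was 0.27 (SE 0.31). With the immune mean it was 0.71 (SE 0.12), where the edgeR adjusted p was 0.0454. The immune mean itself was 5.24 ± 0.42 for Erbb3f/f and 5.13 ± 0.26 for Erbb3d/d (SD, n = 4 each). That fit was among several tried, and the closing section gives its counts over all genes. Of the Cxcl16 exons, 18.3% of the bases overlap Zmynd15 on the other strand, and the libraries carry no strand, so reads of the 2 genes cannot be told apart there.

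Cxcl17, a mucosal chemokine, had 4.24 to 7.79 CPM for Erbb3f/f and 3.499 to 13.7 CPM for Erbb3d/d (log2 fold change 0.61, SE 0.42; edgeR adjusted p = 0.594). Fitted with the epithelial mean, its log2 fold change was -0.54 (SE 0.48). Cxcl13, the B cell attractant, had at most 7 reads in a library.

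**Figure D2:**
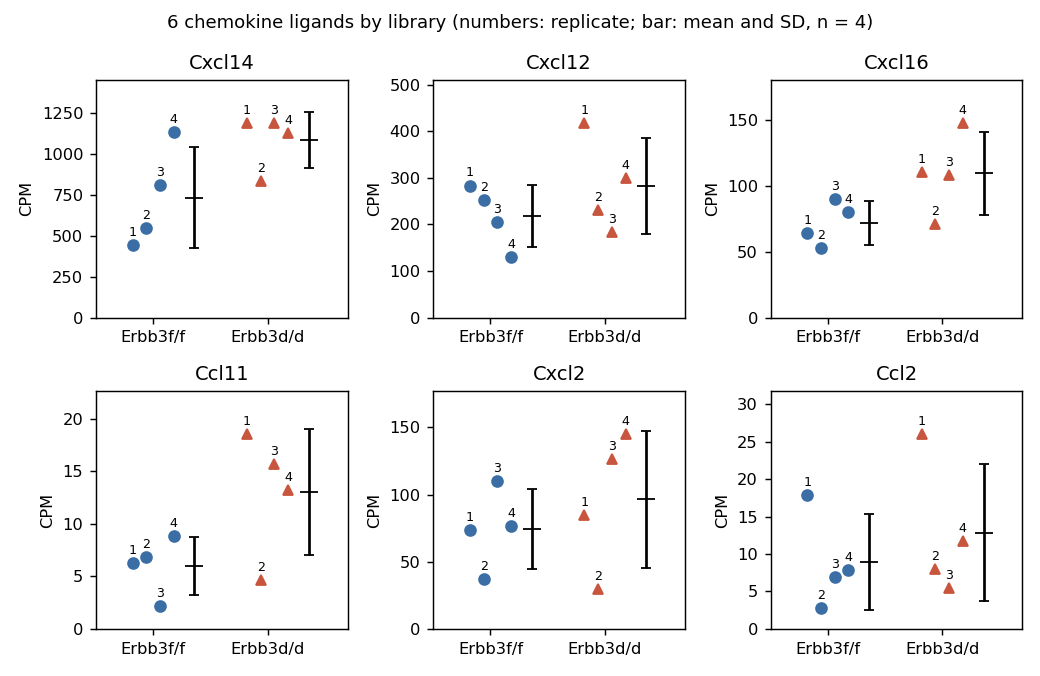
CPM of 6 chemokine ligands by library, with axes from 0, replicate numbers beside the points and the mean with its SD (n = 4) to the right of each group. In each of the 6 panels at least 1 library labelled Erbb3d/d lies within the range of the libraries labelled Erbb3f/f.

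The neutrophil attractants Cxcl1, Cxcl2, Cxcl3 and Cxcl5, which signal through Cxcr2, lie together on chromosome 5 between 90759360 and 90905938. They differed widely in level. Per kb of merged exons, Cxcl2 averaged 41.3 CPM, Cxcl1 2.03 CPM, Cxcl3 0.595 CPM and Cxcl5 0.548 CPM. The promoter windows of Cxcl1, Cxcl2 and Cxcl3 are printed because these 3 ligands share a sequence element while their levels differ. Capitals mark matches to the κB motif, the binding sequence of NF-κB, to the ISRE core or to TATAAA, on either strand. Cxcl10, the interferon-inducible ligand of Cxcr3, is set beside them. The windows are chr5:90890995-90891244 (Cxcl1, plus), chr5:90903649-90903898 (Cxcl2, plus), chr5:90785851-90786100 (Cxcl3, plus) and chr5:92348890-92349139 (Cxcl10, minus), from RefSeq on GRCm38.p6.
Cxcl1: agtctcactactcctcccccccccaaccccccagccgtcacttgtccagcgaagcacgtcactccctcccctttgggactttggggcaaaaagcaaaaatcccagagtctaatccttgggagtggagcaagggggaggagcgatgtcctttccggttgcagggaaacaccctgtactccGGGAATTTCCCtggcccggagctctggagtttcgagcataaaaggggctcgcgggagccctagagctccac
Cxcl2: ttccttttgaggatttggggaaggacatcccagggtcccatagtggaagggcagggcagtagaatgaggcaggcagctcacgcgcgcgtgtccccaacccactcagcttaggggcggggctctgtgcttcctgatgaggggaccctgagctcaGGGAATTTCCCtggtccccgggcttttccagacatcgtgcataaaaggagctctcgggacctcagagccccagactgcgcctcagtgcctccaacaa
Cxcl3: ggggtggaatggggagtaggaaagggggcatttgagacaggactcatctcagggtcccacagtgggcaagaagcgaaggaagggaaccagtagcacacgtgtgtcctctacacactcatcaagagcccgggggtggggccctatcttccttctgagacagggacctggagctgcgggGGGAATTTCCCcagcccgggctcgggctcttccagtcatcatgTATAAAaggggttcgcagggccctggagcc
Cxcl10: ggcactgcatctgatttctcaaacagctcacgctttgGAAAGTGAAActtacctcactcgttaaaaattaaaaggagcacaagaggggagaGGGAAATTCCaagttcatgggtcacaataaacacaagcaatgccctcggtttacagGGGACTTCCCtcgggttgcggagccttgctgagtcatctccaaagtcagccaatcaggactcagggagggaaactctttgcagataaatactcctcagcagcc
These 3 of the Cxcr2 ligands hold the κB form GGGAATTTCC, starting 71, 97 and 73 bases before the start in Cxcl1, Cxcl2 and Cxcl3. It overlaps a further κB match, GGAATTTCCC, that starts at the next base, and both are in the same run of capitals. The form GGGAATTTCC was read from these 3 windows, so its presence in all 3 was fixed in advance. It occurs in 28 of the 32851 windows (0.0852%), these 3 included. Cxcl10 holds 2 other κB matches, GGGAAATTCC and GGGACTTCCC, and the ISRE match GAAAGTGAAA. Windows were found for 25 of the 37 ligands, and none for Cxcl5. Of their 31 windows, 6 (19.4%) hold a κB match, in Ccl9, Ccl20, Cxcl1, Cxcl2, Cxcl3 and Cxcl10, against 3.90% of all 32851 windows. Cxcl1, Cxcl2 and Cxcl3 are neighbours with the same form and some ligands have several windows, so these are not separate observations.

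Cxcl2 had 73.5, 37.2, 110.07 and 76.9 CPM for Erbb3f/f replicates 1 to 4 and 85.1, 29.5, 126 and 145 CPM for Erbb3d/d replicates 1 to 4. Replicate 2 was the lowest of each genotype. Its log2 fold change was 0.38 (SE 0.46; edgeR adjusted p = 0.792), and -0.46 (SE 0.74) with the epithelial mean as covariate. Cxcl1 had 5.45, 1.15, 2.04 and 3.28 CPM for Erbb3f/f and 10.4, 2.68, 1.497 and 3.95 CPM for Erbb3d/d. Replicate 1 was its highest library in each genotype, unlike Cxcl2 (log2 fold change 0.63, SE 0.63; edgeR adjusted p = 0.734). Cxcl3 had 2 to 15 reads in the libraries labelled Erbb3f/f and 31, 8, 7 and 106 reads for Erbb3d/d replicates 1 to 4. Most of its d/d reads came from replicate 4, and the gene did not pass the filter. Cxcl5 was likewise too low for the test, at 0 to 39 reads per library.

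Among the Cxcr3 ligands, which attract activated T cells and natural killer cells, Cxcl10 had 17.0, 4.82, 11.5 and 19.9 CPM for Erbb3f/f and 18.0, 13.5, 16.9 and 26.0 CPM for Erbb3d/d. The f/f group held the lowest value, in replicate 2, and the d/d group the highest, in replicate 4. Its log2 fold change was 0.49 (SE 0.38; edgeR adjusted p = 0.650). Exonic bases shared with Art3 on the other strand make up 5.91% of Cxcl10. Cxcl9 ran from 2.05 to 5.58 CPM for Erbb3f/f and from 1.34 to 3.85 CPM for Erbb3d/d (log2 fold change -0.46, SE 0.43; edgeR adjusted p = 0.714). Cxcl11, annotated as a polymorphic pseudogene on this assembly, had at most 4 reads.

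The monocyte attractants Ccl2, Ccl7, Ccl8 and Ccl12 and the eosinophil attractant Ccl11 lie side by side on chromosome 11 between 82035571 and 82116799. Ccl11, also called eotaxin, signals through Ccr3 and is known for bringing eosinophils into the uterus. It had 6.23, 6.81, 2.20 and 8.82 CPM for Erbb3f/f and 18.6, 4.67, 15.7 and 13.2 CPM for Erbb3d/d. Replicates 1, 3 and 4 of Erbb3d/d lay above all f/f libraries and replicate 2 lay among them. The difference was 1.13 on the log2 scale (SE 0.47, 95% interval 0.09 to 2.18), with an unadjusted p of 0.0368 and 0.404 after edgeR's adjustment. With the epithelial mean as covariate it was 0.45 (SE 0.56), and with the smooth muscle mean 0.53 (SE 0.60). Its receptor Ccr3 had 42.3 ± 12.3 CPM for Erbb3f/f and 47.6 ± 27.6 CPM for Erbb3d/d (SD, n = 4 each), a difference of 0.18 on the log2 scale (SE 0.41).

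Ccl2 and its neighbour Ccl7, which share the receptor Ccr2, varied together over the libraries. Ccl2 had 17.9, 2.83, 6.99 and 7.91 CPM for Erbb3f/f replicates 1 to 4 and 26.0, 8.05, 5.52 and 11.8 CPM for Erbb3d/d replicates 1 to 4. Ccl7 had 11.2, 1.68, 7.15 and 6.56 CPM for Erbb3f/f and 15.8, 6.42, 2.60 and 9.21 CPM for Erbb3d/d. Replicate 1 was the highest library of each genotype in both genes, replicate 2 the lowest for Erbb3f/f and replicate 3 the lowest for Erbb3d/d. The range over the 8 libraries was 9.21-fold for Ccl2 and 9.44-fold for Ccl7, against 2.70-fold for Cxcl14. Their log2 fold changes, 0.52 (SE 0.60) and 0.35 (SE 0.60), were smaller than their standard errors, and without Erbb3d/d replicate 1 they were -0.08 and -0.14. Ccl8, another monocyte attractant, ran from 3.56 to 8.37 CPM for Erbb3f/f and from 4.67 to 16.1 CPM for Erbb3d/d (log2 fold change 0.53, SE 0.38). Ccl12 had 3 to 12 reads in the f/f libraries and 8 to 25 in the d/d libraries. Ccl24, another eosinophil attractant, had at most 14 reads, and Ccl26 was at 0.

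The inflammatory CC ligands Ccl3, Ccl4, Ccl5, Ccl6 and Ccl9, which macrophages and lymphocytes make, lie on chromosome 11 between 83525778 and 83664683. Ccl6 was the most abundant of them, at 95.4, 59.4, 98.2 and 101 CPM for Erbb3f/f and 87.6, 46.5, 156 and 110.5 CPM for Erbb3d/d. Replicate 2 was the lowest of each genotype. The log2 fold change was 0.18 (SE 0.33; edgeR adjusted p = 0.866). Ccl3 had 28.2, 14.2, 27.6 and 22.05 CPM for Erbb3f/f and 34.9, 15.2, 31.8 and 38.0 CPM for Erbb3d/d (log2 fold change 0.38, SE 0.29; edgeR adjusted p = 0.647). All d/d libraries but replicate 2 exceeded the f/f libraries. Ccl4, a close relative of Ccl3, ran from 4.82 to 18.6 and 8.90 to 16.9 CPM (log2 fold change 0.11, SE 0.39). Ccl9 ran from 11.9 to 31.7 and 12.9 to 33.3 CPM (log2 fold change 0.20, SE 0.36). Ccl5, made mainly by T cells and natural killer cells, had the most negative log2 fold change of the 23, -0.74 (SE 0.47; edgeR adjusted p = 0.559). Its levels were 5.26, 5.65, 11.5 and 3.73 CPM for Erbb3f/f and 3.64, 1.75, 2.92 and 7.37 CPM for Erbb3d/d. Over all tested genes, 48% of log2 fold changes were positive and 52% negative. Of the 16 tested immune markers, 7 had positive and 9 negative log2 fold changes, with a median of -0.10. Among the list's lymphocyte markers, those of natural killer cells were at -0.88 (Ncr1, SE 0.26) and -0.77 (Nkg7, SE 0.28) and those of T cells at -0.85 (Cd3e, SE 0.46) and 0.15 (Cd3d, SE 0.81), none of them called. Their part in the Ccl5 values was not tested.

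The group of lymphoid and barrier ligands holds 12 symbols, of which 6 were at 0 in all libraries. Ccl28, a mucosal epithelial ligand of Ccr10 and Ccr3, was the most abundant of the group. It had 33.9, 111, 46.4 and 95.5 CPM for Erbb3f/f and 52.2, 39.9, 98.5 and 129 CPM for Erbb3d/d. Each genotype split into 2 low and 2 high libraries, and the log2 fold change was 0.16 (SE 0.46; edgeR adjusted p = 0.915). With the epithelial mean as covariate it was -0.96 (SE 0.50; edgeR adjusted p = 0.999). Ccl22, a dendritic cell and macrophage product that binds Ccr4, ran from 3.80 to 9.98 CPM for Erbb3f/f and from 4.89 to 15.3 CPM for Erbb3d/d (log2 fold change 0.23, SE 0.41). Ccl27a held the steadiest level of the tested ligands over the libraries, 3.83 to 6.44 CPM, a range of 1.68-fold (log2 fold change -0.0027, SE 0.27, 95% interval -0.60 to 0.59). Ccl25, the thymic and intestinal ligand of Ccr9, ran from 0.877 to 2.83 CPM for Erbb3f/f and from 0.688 to 2.22 CPM for Erbb3d/d (log2 fold change -0.62, SE 0.49). Ccl25 shares 204 exonic bases (2.74% of its exons) with Elavl1 and Ccl27a shares 8 (0.337%) with Il11ra1 on the other strand. Reads cannot be told apart over these small parts. Ccl17 had at most 13 reads and Ccl1 at most 3.

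The ligands at 0 were Ccl19, Ccl20, Ccl21a, Ccl21b, Ccl21c, Ccl26 and Ccl27b. A count of 0 allows up to 3 reads, or 0.236 to 0.350 CPM by library, for counting error only. The Ccl21 and Ccl27 genes exist in near-identical copies and Ccl19 lies among them, so zeros of these genes are uncertain if reads shared by copies were not assigned. Lyve1 and Prox1, markers of the lymphatic endothelium that is known to make Ccl21, were present at 20.01 to 109.6 and 4.64 to 23.8 CPM.

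Cx3cl1, the membrane-anchored ligand of Cx3cr1 on macrophages and natural killer cells, had 39.3, 27.6, 66.4 and 32.3 CPM for Erbb3f/f and 27.2, 45.0, 56.4 and 70.6 CPM for Erbb3d/d. The groups overlapped over most of their range. The log2 fold change was 0.26 (SE 0.33; edgeR adjusted p = 0.797), and 0.94 (SE 0.39) with the smooth muscle mean as covariate, where the adjusted p was 0.551.

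Library differences ran across many ligands at once. Among the 23 tested ligands, replicate 2 was the lowest library for 13 for Erbb3f/f and for 12 for Erbb3d/d. Erbb3d/d replicate 3 was the lowest for 8. Such counts were not taken over all tested genes, so a trait of the ligands cannot be told from one of the whole library. Erbb3d/d replicate 4 was the highest d/d library for 11 ligands and the lowest for 0. Erbb3f/f replicates 1 and 3 were each the highest f/f library for 8. The mean log2 CPM of immune markers was likewise lowest in replicate 2 of each genotype, 4.86 for Erbb3f/f and 4.82 for Erbb3d/d, against 4.96 to 5.79 in the other 6 libraries. That of 12 NF-κB and inflammatory target genes was lowest there too, 4.42 for Erbb3f/f and 4.70 for Erbb3d/d, against 5.03 to 5.72 elsewhere. Their part in the ligand values was not tested.

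**Figure D3:**
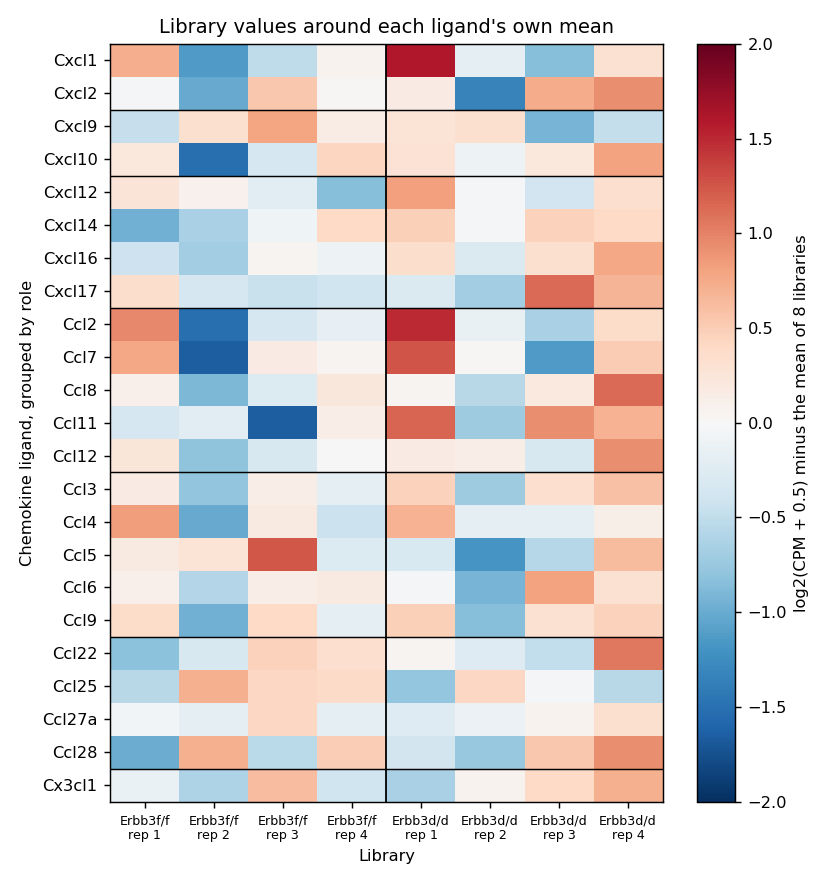
Deviation of each library from the ligand's mean over 8 libraries, in log2(CPM + 0.5), for the 23 tested chemokine ligands grouped by role (lines separate the roles; a black vertical line separates the genotypes). The replicate 2 columns are the lowest of their genotype for 13 ligands for Erbb3f/f and 12 for Erbb3d/d, and Ccl2, Ccl7 and Cxcl1 share high values in replicate 1.

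The genotype comparison asked which ligands differ between the labels. At the adjusted threshold of 0.05, edgeR called none of the 23 tested ligands in its quasi-likelihood fit over 14598 genes, in which 0 genes were called in either direction (0%). The smallest adjusted p of a ligand was 0.365. At an unadjusted p under 0.05 there were 2 ligands, Cxcl16 and Ccl11, both higher for Erbb3d/d, where 6.64% of all tested genes were higher and 4.97% lower (11.6% in either direction). DESeq2 called 0 ligands, against 1.39% of tested genes higher and 0.404% lower. The 4 values of the genotypes did not overlap for 0 ligands, against 2.56% of tested genes higher and 2.48% lower (5.04% in either direction). Exact permutation tests over the 70 assignments of 8 libraries gave two-sided p-values of 0.0857 or more for each tested ligand, where 0.0286 is the smallest possible. By sign alone, 19 of the 23 log2 fold changes were positive and 4 negative, with a median of 0.37, where 48% of all tested genes were positive and 52% negative and their median was -0.01. The ligands of a library vary together, so this count of signs does not stand for 23 separate observations. Summed over all 37 ligands, the libraries labelled Erbb3f/f had 1204, 1170.5, 1579 and 1789 CPM and those labelled Erbb3d/d 2187, 1400, 2070.2 and 2254 CPM. Replicates 1, 3 and 4 of Erbb3d/d exceeded all f/f libraries and replicate 2 did not.

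Leaving out Erbb3d/d replicate 2 changed these counts more than leaving out any other library. Without it, 6 ligands had an unadjusted p under 0.05 (Ccl3, Ccl11, Cxcl3, Cxcl14, Cxcl16 and Cxcl17), where 9.97% of all tested genes were higher at that threshold. Cxcl3 had not passed the filter with all libraries, so the 6 include a ligand that was not in the main test. It had 2 to 15 reads for Erbb3f/f and 31, 7 and 106 in the remaining d/d libraries. The count of 6 therefore does not compare directly with that of the main test. Of the 6 ligands, 3 did not overlap between the genotypes (Ccl3, Ccl11 and Cxcl16), as did 7.15% of all tested genes in that direction. In each of the 3, the library left out was the only d/d library inside the f/f range. None was called, with adjusted p-values of 0.0662 for Cxcl16 and 0.0806 for Ccl11 in edgeR's test, while 0.968% of all tested genes were called higher and 0.785% lower. Without Erbb3f/f replicate 2 or without Erbb3d/d replicate 4, no ligand was higher at an unadjusted p under 0.05. The share of all tested genes that were higher was not taken for these fits. Without Erbb3d/d replicate 4, the only d/d library inside its f/f range, Ccl5 was lower without overlap (log2 fold change -1.23, unadjusted p 0.0179, adjusted p 0.656 in edgeR). Of all tested genes, 2.73% were then lower at an unadjusted p under 0.05 and 2.99% lower without overlap. The intervals of Cxcl12 (-0.29 to 1.03) and Ccl2 (-0.82 to 1.87) include differences in either direction.

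**Figure D4:**
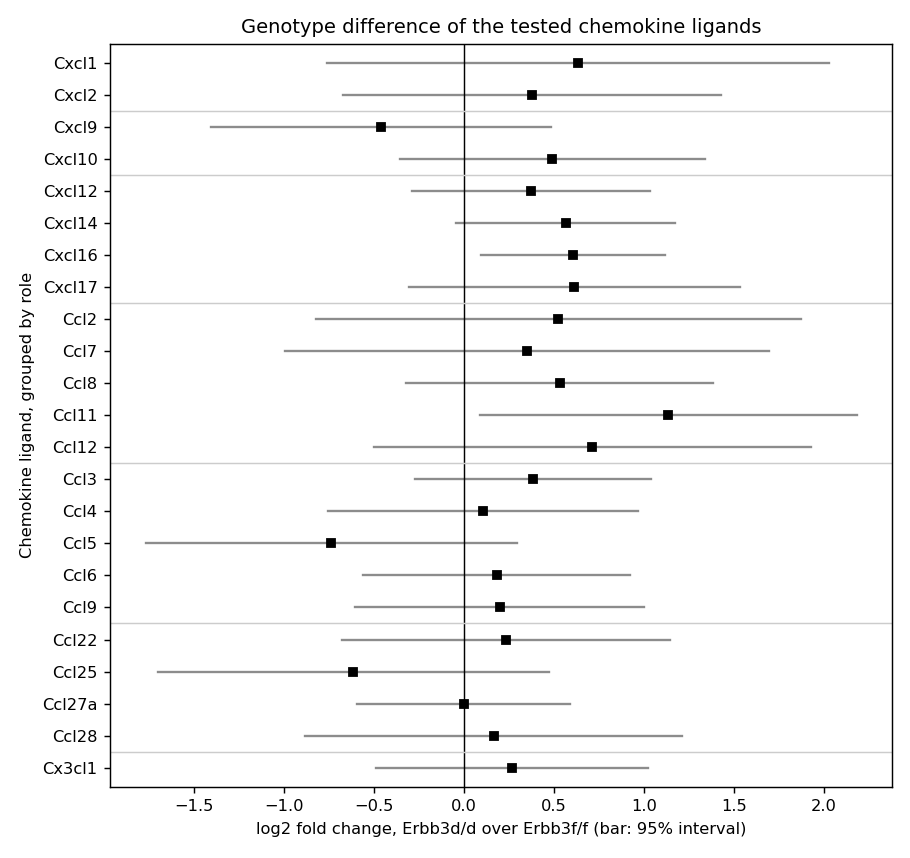
Log2 fold change of the 23 tested chemokine ligands, libraries labelled Erbb3d/d over Erbb3f/f, with the 95% interval of the fit as a bar and ligands grouped by role. The intervals of Ccl11 (0.09 to 2.18) and Cxcl16 (0.10 to 1.12) lie above 0 before adjustment, and those of the other 21 ligands include 0.

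The receptors were read from a list of 22 genes, 4 of them under older symbols (Darc for Ackr1, Ccbp2 for Ackr2, Cxcr7 for Ackr3, Ccrl1 for Ackr4). Per kb of merged exons, the scavenging receptor Ackr3 (Cxcr7) was the highest at 66.5 CPM, followed by Cxcr4 at 50.6, the non-signalling Ccrl2 at 35.8, Cx3cr1 at 28.3, Ccr2 at 24.1 and Cxcr6 at 21.2 CPM. The first 2 of these bind Cxcl12. The order is that of means, and in Erbb3d/d replicate 4 Cxcr4 (80.6 CPM per kb) exceeded Ackr3 (54.1). Per kb of the longest transcript, Ccr2 and Cx3cr1 were level at 28.4 CPM. Ackr3 had 240 ± 49.0 CPM (SD, n = 4) for Erbb3f/f and 205 ± 17.3 CPM (SD, n = 4) for Erbb3d/d, and Cxcr4 had 82.1 ± 33.1 and 101 ± 42.2 CPM. Neither difference was called (log2 fold changes -0.23, SE 0.14, and 0.30, SE 0.38). Cxcr2, the neutrophil receptor, ran from 3.04 to 47.6 CPM for Erbb3f/f and from 3.34 to 28.1 CPM for Erbb3d/d, the widest spread among the receptors named here with a fold change of -0.09 (log2, SE 0.92). Of the 18 tested receptors, 0 were called (0% of all tested genes) and 0 had an unadjusted p under 0.05 (11.6% of all tested genes). Of their log2 fold changes 7 were positive and 11 negative, where 48% of all tested genes were positive and 52% negative. The median of the receptors was -0.15. Below Cxcr6 in mean level per kb of merged exons came Ccr3, Ccr1, Ccr10, Ackr1 (Darc), Cxcr3, Cxcr2, Ackr4 (Ccrl1), Xcr1, Ccr7, Ackr2 (Ccbp2), Cxcr5 and Ccr9. Ccr4, the receptor of Ccl17 and Ccl22, did not pass the filter. It had 1.27, 0.942, 2.44 and 3.05 CPM for Erbb3f/f and 0.393, 0.467, 0.788 and 0.351 CPM for Erbb3d/d, without overlap (exact permutation p = 0.0286, the smallest possible), where 2.48% of tested genes were lower without overlap. None of the 18 tested receptors was without overlap, against 5.04% of all tested genes in either direction. Ccr6, Ccr8 and Cxcr1 had at most 7, 18 and 3 reads in a library and were not tested.

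**Figure D5:**
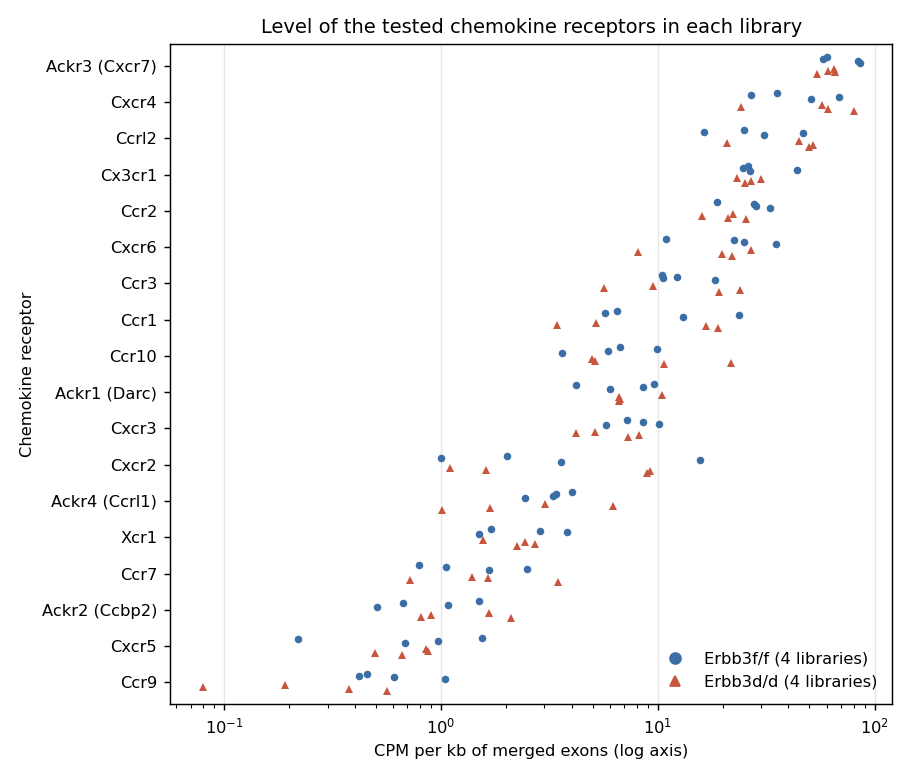
Level of the 18 tested chemokine receptors in CPM per kb of merged exons on a log axis, 1 point per library, with circles for Erbb3f/f and triangles for Erbb3d/d and older symbols in brackets. Ackr3 (Cxcr7) and Cxcr4, the receptors of Cxcl12, lead the order of means, and the genotypes overlap in each row.

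Related genes were read from 4 further lists. Genes of a list share the same libraries, so their counts of signs are not counts of separate observations. Of the ligands, Cxcl10 (log2 fold change 0.49) and Cxcl9 (-0.46) are interferon-responsive by their biology. Of the 12 interferon-responsive genes listed, 12 had positive log2 fold changes with a median of 0.42, where 48% of all tested genes were positive. At an unadjusted p under 0.05 there were 5, where 6.64% of all tested genes were higher. None was called by edgeR, and DESeq2 called 1, the antiviral gene Rsad2, against 1.39% of all tested genes called higher. Rsad2 had 9.74 ± 3.41 CPM for Erbb3f/f and 20.3 ± 5.47 CPM for Erbb3d/d (SD, n = 4 each), without overlap, a log2 fold change of 1.05 (SE 0.26; adjusted p 0.243 in edgeR and 0.0147 in DESeq2). Irf1, an interferon-induced transcription factor, had 80.3 ± 9.19 and 102 ± 3.85 CPM, also without overlap (log2 fold change 0.35, SE 0.10), where 2.56% of all tested genes were higher without overlap. Usp18, a brake on interferon signalling, had a log2 fold change of 0.52 (SE 0.21; edgeR adjusted p = 0.383).

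All 12 NF-κB and inflammatory targets had positive log2 fold changes with a median of 0.26, where 48% of all tested genes were positive. Of these 12, 0 had an unadjusted p under 0.05, where 6.64% of all tested genes were higher. Those with the smallest p were the adhesion molecule Vcam1 (log2 fold change 0.61, SE 0.29), the feedback inhibitor Tnfaip3 (0.53, SE 0.27) and the cytokine Il6 (1.14, SE 0.68). Of 8 genes that hold, cut or shed ligands, 7 had positive log2 fold changes, where 48% of all tested genes did. The heparan sulphate proteoglycans Sdc4 (log2 fold change 0.52, SE 0.16) and Sdc2 (0.30, SE 0.13) had an unadjusted p under 0.05. At that threshold 6.64% of all tested genes were higher. Dpp4, the protease that inactivates Cxcl12, was not under it (log2 fold change 0.38, SE 0.22). Of the 3 tested ligands outside the naming rule, the lymphotactin gene Xcl1 had 9.08 ± 1.13 CPM for Erbb3f/f and 5.199 ± 3.08 CPM for Erbb3d/d (SD, n = 4 each; log2 fold change -0.82, SE 0.35; edgeR adjusted p = 0.412). Pf4 had a log2 fold change of 0.76 (SE 0.38) and Cklf of 0.11 (SE 0.25). Ppbp, a platelet chemokine, had at most 7 reads in a library and was not tested.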

How the data were processed

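Polyadenylated RNA of uterine stromal cells was sequenced in 8 non-directional libraries, 4 per label, with pairs of 150 bp per the labels' protocols. The authors deposited raw read counts per gene symbol, 1 table per library, with no normalization. The submitters' processing notes name HISAT2, SAMtools, HTSeq and StringTie and the build mm10 (GRCm38), and the counting options are not given in the sources used here. The 5 closing lines that name no gene held 70.9% to 73.0% of all entries and were left out of library sizes and tests.

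These counts went into edgeR 4.0.16 (R 4.3.3): filterByExpr on genotype, TMM scaling, glmQLFit (robust) and glmQLFTest over 14598 genes, Benjamini-Hochberg adjustment, threshold 0.05. CPM is the count over the TMM-scaled size. The fit was tested on simulated counts. DESeq2 1.42.0, other scalings, no filter, a replicate block, 3 marker means as covariates and each library left out were tried. Exact permutation tests used log2(CPM + 0.5). Lengths and positions came from GENCODE vM21 (GRCm38; 36 of 37 ligands matched), promoters from RefSeq. Whether 1 entry stands for a read or a read pair is not given, and it is called a read here. Ligands with a mean of at least 1 CPM are named with values, those with at least 10 reads in a library by reads, receptors from a mean of 1 CPM, and up to 3 genes of other lists by smallest p. Members and lists were chosen with earlier results of these data known. Besides the 22 receptors listed, 1 more gene of that list was left out and is not reported here.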

Additional observations from a re-analysis of the deposited data

Results flagged for a closer look

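The 24 ligands with a mean of at least 1 CPM gave 48 sets of 4 libraries, and in 2 of these 1 library stood far from the other 3. Chance alone gives about 2.4 at a rate of 1 in 20. Ccl6 had 59.4 CPM for Erbb3f/f replicate 2, below the other f/f libraries, of which the nearest had 95.4 CPM. Cxcl17 had 7.79 CPM for Erbb3f/f replicate 1, above the other f/f libraries, of which the nearest had 4.61 CPM.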

How the results depend on the processing

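Counts over all genes depended on the method. In place of 0 higher and 0 lower, DESeq2 called 203 and 59, the fit with the replicate block 39 and 13, and the fit with the immune marker mean as covariate 35 and 15. Leaving out 1 library gave 0 to 143 higher and 0 to 116 lower, with calls only without Erbb3d/d replicate 2. Ligands called stayed at 0 under these settings except with the immune mean as covariate, where 1 was called higher (Cxcl16, log2 fold change 0.71). Ligands higher at an unadjusted p under 0.05, 2 in the reported fit, numbered 4 with the replicate block, 0 with the epithelial mean, 1 with the smooth muscle mean, and 0 to 6 when 1 library was left out, with 0 to 1 lower. Cxcl3, which did not pass the filter in the reported fit, is counted without Erbb3f/f replicate 1 and without Erbb3d/d replicate 2 or 3. Ligands without overlap numbered 0 to 3 higher and 0 to 1 lower when 1 library was left out. Shares of all tested genes at these criteria were not taken for the block and covariate fits, nor for every library left out. These counts therefore do not show a trait of the ligands. Same-numbered libraries were not shown to be pairs. Their deviations from the group means correlated at 0.24, 0.17, 0.10 and 0.15 for numbers 1 to 4, all above 0 and the third just under 0.1. Of 8 libraries, 5 correlated best with their own number. These values do not settle whether the numbers stand for pairs, and the block is given here only. With the block the smallest p of a ligand was again that of Cxcl16 (log2 fold change 0.59, SE 0.12; edgeR adjusted p = 0.101). The share of Cxcl12 in ligand reads, 15.4%, was 5.52% per kb of the longest transcript and 4.02% per kb of merged exons, because its transcripts are long.

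Of 352 values of single ligands under the alternatives, 316 kept direction and call, 35 changed sign and 1 became called. With the epithelial mean as covariate the log2 difference was -0.17 for Ccl22, -0.96 for Ccl28, -0.55 for Ccl6, -0.39 for Ccl8, -0.045 for Ccl9, -0.068 for Cxcl10, -0.54 for Cxcl17, -0.46 for Cxcl2 and 0.33 for Cxcl9. With the smooth muscle mean it was -0.81 for Ccl2, 0.032 for Ccl25, 0.31 for Ccl27a, -0.41 for Ccl4, -0.68 for Ccl7, -0.99 for Cxcl1 and -0.34 for Cxcl12. Ccl27a, at -0.0027, was 0.0060 with DESeq2 size factors, 0.0024 with no filter, 0.0041 with DESeq2, 0.0010 with the replicate block and 0.081 with the immune mean. Leaving out 1 library gave -0.081 to 1.12 for Ccl2, -0.23 to 0.45 for Ccl22, -0.12 to 0.18 for Ccl27a, -0.17 to 0.46 for Ccl28, -0.14 to 0.53 for Ccl4, -0.11 to 0.42 for Ccl6, -0.14 to 0.73 for Ccl7, -0.013 to 0.43 for Ccl9 and -0.14 to 1.11 for Cxcl1. The cause of these changes was not tested. The epithelial and smooth muscle means differed between the labels too, so fits with them cannot tell the label from the marker level. No sign change occurred for Ccl3, Ccl5, Ccl11, Cx3cl1, Cxcl14 and Cxcl16. Depth limits what can be said of ligands with few reads, among them Cxcl3, Cxcl5 and Ccl24.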
